A study of Homo sapiens with 8 samples.

Results

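The response to LDB1 knockdown that 6T-CEM and J.gamma1 cells share was described across all genes, with all 8 of the 8 RNA-seq libraries of the series, 4 with the control shRNA (sh-NC) and 4 with an shRNA against LDB1 (sh-LDB1). 6T-CEM and J.gamma1 are human T-cell acute lymphoblastic leukemia (T-ALL) lines derived from CCRF-CEM and Jurkat, and J.gamma1 is a Jurkat derivative that lacks phospholipase C gamma. Each line gave 2 sh-NC and 2 sh-LDB1 libraries, so the 4 groups were 6T-CEM sh-NC, 6T-CEM sh-LDB1, J.gamma1 sh-NC and J.gamma1 sh-LDB1, with 2 libraries each. By the study's methods the shRNAs were carried by lentivirus, and transduced cells were selected with puromycin before harvest, so that the control group also carried a virus and a hairpin. The labels do not say which LDB1 hairpin was sequenced, and each line is a single established line.

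LDB1 is an adaptor protein without a DNA-binding domain of its own. It binds LIM-only proteins such as LMO2, which join GATA factors and basic helix-loop-helix factors such as TAL1 and LYL1 on DNA, and by pairing with itself it can hold an enhancer near a promoter. Complexes of this kind are best known from blood stem cells and red cell precursors, and several of their members drive T-ALL when they are expressed in thymocytes.

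The study lists 3 hairpins against LDB1, and their guide strands are shown because any of them may have been in the sequenced cells. The guides are printed 5′ to 3′ with the seed, bases 2 to 8, in capitals.
sh-LDB1#1: gATTGTCAcactcctctgtcc
sh-LDB1#2: cAAAGATGctgcggaagtagc
sh-LDB1#3: tGAAGTGCcacgtctttatcc
All 3 pair with coding sequence of LDB1 on chromosome 10 of GRCh38, minus strand. The target of sh-LDB1#1 joins exons 4 and 5 of 11 (chr10:102110959-102111076, intron included), that of sh-LDB1#2 lies in exon 6 (chr10:102110657-102110677) and that of sh-LDB1#3 in exon 7 (chr10:102109971-102109991).

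LDB1 itself was lower in every sh-LDB1 library. Its normalized counts, which are counts scaled to a common library size, were 3092 and 3216 in 6T-CEM sh-NC and 1070 and 1012 in 6T-CEM sh-LDB1. In J.gamma1 they were 1740 and 1700 in sh-NC and 960.2 and 889.7 in sh-LDB1. The groups did not overlap in either line, and 33.0% of the control level remained in 6T-CEM cells and 53.8% in J.gamma1. In the additive fit, which takes the line as a block and compares 4 sh-LDB1 with 4 sh-NC libraries, the log2 fold change was -1.25 ± 0.13 (SE; adjusted p = 0.000402 by edgeR's quasi-likelihood test, adjusted by Benjamini-Hochberg). All adjusted p-values below come from this test over 18552 genes, and values after ± are standard errors of a log2 fold change unless stated otherwise. Where 2 values of a gene or list stand side by side without a line, the first is that of 6T-CEM and the second that of J.gamma1, and "A and B against C and D" gives both sh-NC libraries before both sh-LDB1 libraries.

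The libraries held between 26160492 and 30604977 counts. All 11 T-lineage markers checked were present, and their summed normalized counts were 71533 to 72803 in 6T-CEM sh-NC, 89952 to 89990 in 6T-CEM sh-LDB1, 85397 to 85596 in J.gamma1 sh-NC and 107862 to 108055 in J.gamma1 sh-LDB1. The erythroid and megakaryocytic markers ALAS2, PF4 and GP9 were at 0 in every group, and the myeloid marker ELANE likewise. The sum of the 8 myeloid markers did not exceed 88 in any library and that of the 6 fibroblast markers did not exceed 305. The 7 B-cell markers summed to 1004 to 1011 in 6T-CEM sh-NC, 1255 to 1346 in 6T-CEM sh-LDB1, 2419 to 2450 in J.gamma1 sh-NC and 3180 to 3258 in J.gamma1 sh-LDB1, but of the 5 that were tested 1 was called higher, 1 was called lower and 3 had opposite signs in the lines. The sum of the 7 erythroid and megakaryocytic markers went from 167 to 180 in sh-NC to 122 to 159 in sh-LDB1 in 6T-CEM cells and from 414 to 450 to 141 to 209 in J.gamma1. Of these markers, 5 had at most 3 counts per library in both 6T-CEM groups and in J.gamma1 sh-LDB1, and 4 in J.gamma1 sh-NC. Only 2 were tested, and both were called lower. The 8 markers of cytotoxic lymphocytes summed to 589 to 622 in 6T-CEM sh-NC, 1094 to 1124 in 6T-CEM sh-LDB1, 1906 to 2255 in J.gamma1 sh-NC and 1955 to 2097 in J.gamma1 sh-LDB1. In bulk RNA, fewer cells of a type and less RNA per cell cannot be told apart.

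Knockdown of LDB1 changed 658 genes in the same direction in both lines. These shared genes were called in the additive fit (log2 fold change of more than 1 in size, with an adjusted p below 0.05) and also had an adjusted p under 0.05 and that same direction in each line. There were 288 that rose, 1.55% of the 18552 genes tested, and 370 that fell, 1.99%. The additive fit by itself called 588 genes higher (3.17%) and 655 lower (3.53%). Without J.gamma1 sh-LDB1 replicate 1, the first of these counts was 384. Of the 1243 genes called with all 8 libraries, 1118 (89.9%) had the same sign in both lines and 125 had opposite signs, against 60.9% with the same sign among all genes tested. Since a call in the additive fit needs an effect in the average of both lines, the share of same signs among its calls is partly fixed by the fit.

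**Figure D1:**
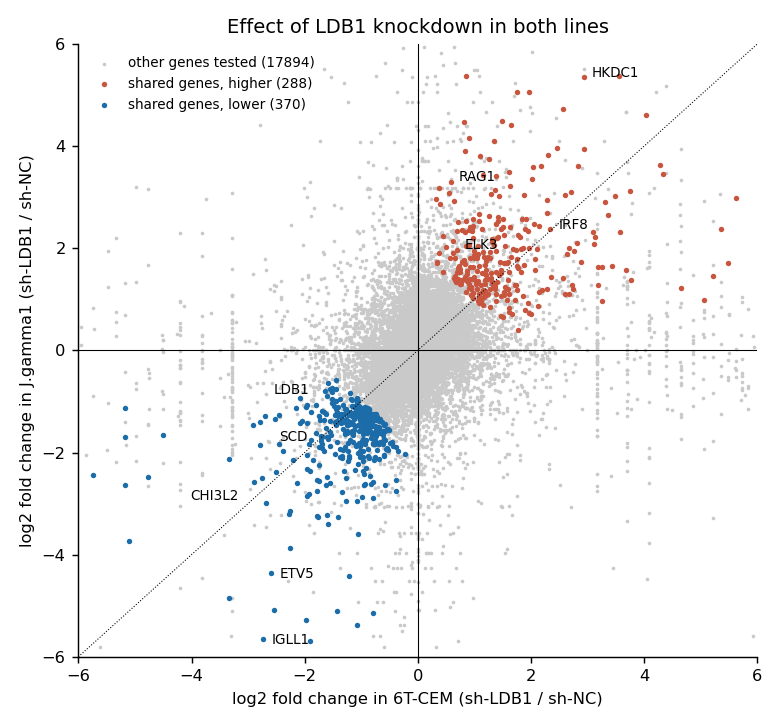
The log2 fold change of each gene in 6T-CEM (horizontal axis) against that in J.gamma1 (vertical axis), with the 288 shared genes that rose in red, the 370 that fell in blue and all other genes tested in grey, and the dotted line marking equal change. Shared genes lie in the lower left and upper right quadrants by their definition, and 146 genes past 6 on either axis, 28 of them shared, are not drawn.

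The shared genes did not overlap between groups in any line, since all 658 had both sh-LDB1 libraries on 1 side of both sh-NC libraries in each line. This lack of overlap was largely fixed by the choice of genes, which needed an adjusted p under 0.05 in each line. Over all genes, 16.5% had their sh-LDB1 libraries above and 17.6% below the sh-NC libraries in both lines. The genes that rose were expressed at a lower level than those that fell, with a median of 127 normalized counts over the 8 libraries against 555, where the median of all genes tested was 389. Protein-coding genes made up 78.1% of those that rose and 89.2% of those that fell, against 72.6% of all genes tested. Long noncoding RNAs made up 29 of those that rose and 15 of those that fell.

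The effect on the shared genes was often larger in J.gamma1, where LDB1 kept a larger share of its control level (53.8% against 33.0%). The normalized counts of LDB1 left after knockdown were not higher there, with 1070 and 1012 in 6T-CEM and 960.2 and 889.7 in J.gamma1. The median log2 fold change of the shared genes that rose was 1.38 in 6T-CEM cells and 1.76 in J.gamma1, and that of the genes that fell was -1.11 and -1.55. A difference in size between the lines was called (adjusted p under 0.05) for 286 of the 658 shared genes (43.5%), of which 256 changed more in J.gamma1 and 30 changed more in 6T-CEM. Over all genes tested a difference between the lines was called for 24.4%. The line with the larger change is not given for those, so the direction cannot be called particular to the shared genes. For 75 shared genes, 16 that rose and 59 that fell, the 95% interval of the difference lay within ±0.58 on the log2 scale, that is within 1.5-fold. The genes named below for the size or the like size of their change were taken only from shared genes without overlap between groups, so that their lack of overlap, and the narrow intervals of the latter, were fixed by the choice.

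Among these genes of like size, those that fell with the smallest adjusted p were SCD, TMED10, GNG2, ENDOD1 and CHI3L2. SCD, the desaturase that makes monounsaturated fatty acids, had normalized counts of 21802 and 23009 in 6T-CEM sh-NC against 6731 and 6999 in sh-LDB1, and of 34927 and 35201 in J.gamma1 sh-NC against 10512 and 10090 in sh-LDB1. Its log2 fold change was -1.71 ± 0.046 in 6T-CEM cells and -1.77 ± 0.045 in J.gamma1, and the 95% interval of the difference ran from -0.20 to 0.08. It was 3.26-fold and 3.40-fold lower. TMED10, a cargo receptor of vesicles between the endoplasmic reticulum and the Golgi, had 7804 and 7516 against 2283 and 2282 in 6T-CEM cells, and 7653 and 7620 against 1947 and 2141 in J.gamma1. GNG2, a gamma subunit of heterotrimeric G proteins, had 5736 and 5646 against 1875 and 1869 in 6T-CEM cells, and 4795 and 4440 against 1447 and 1422 in J.gamma1. The controls of both lines had similar levels of these genes, and so had the knockdown cells. The intervals of the difference ran from -0.32 to 0.01 for TMED10 and from -0.25 to 0.08 for GNG2. ENDOD1, which encodes an endonuclease domain protein, fell from 4442 and 4419 to 932.6 and 978.1 in 6T-CEM cells, and from 2376 and 2144 to 508.5 and 509.6 in J.gamma1. CHI3L2, a chitinase-like protein without enzyme activity, started at different levels, 7397 and 6943 in 6T-CEM cells and 40189 and 42763 in J.gamma1, and was at 1092 and 1151 and at 5289 and 5249 after knockdown. It fell 6.39-fold and 7.87-fold, and this small difference of -0.30 passed its own test (adjusted p = 0.00929).

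The genes of like size that rose with the smallest adjusted p were ELK3, SLC2A3, FBXW7, CHRNA3 and KLF10. FBXW7, the substrate receptor of a ubiquitin ligase that marks NOTCH1, MYC and cyclin E for degradation, had normalized counts of 1452 and 1670 in 6T-CEM sh-NC against 3336 and 3298 in sh-LDB1, and of 1529 and 1536 in J.gamma1 sh-NC against 3304 and 3314 in sh-LDB1. All 4 sh-LDB1 libraries lay between 3298 and 3336. Its log2 fold change was 1.09 ± 0.066 and 1.11 ± 0.066 (additive adjusted p = 1.56e-05). SLC2A3, the glucose transporter GLUT3, rose from 401.9 and 354.2 to 1124 and 1154 in 6T-CEM cells and from 414.6 and 463.1 to 1462 and 1465 in J.gamma1. ELK3, an ETS factor that can act as a repressor, rose from 578.9 and 562.5 to 1839 and 1812, and from 550.4 and 516.3 to 2063 and 2186. The sh-LDB1 libraries were above the sh-NC libraries throughout. CHRNA3, a subunit of the nicotinic acetylcholine receptor, rose 3.07-fold and 2.92-fold. It shares 198 exon bases with CHRNA5 on the opposite strand, which makes its values uncertain. KLF10, a zinc-finger repressor induced by TGF-beta, rose 2.47-fold and 2.86-fold.

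**Figure D2:**
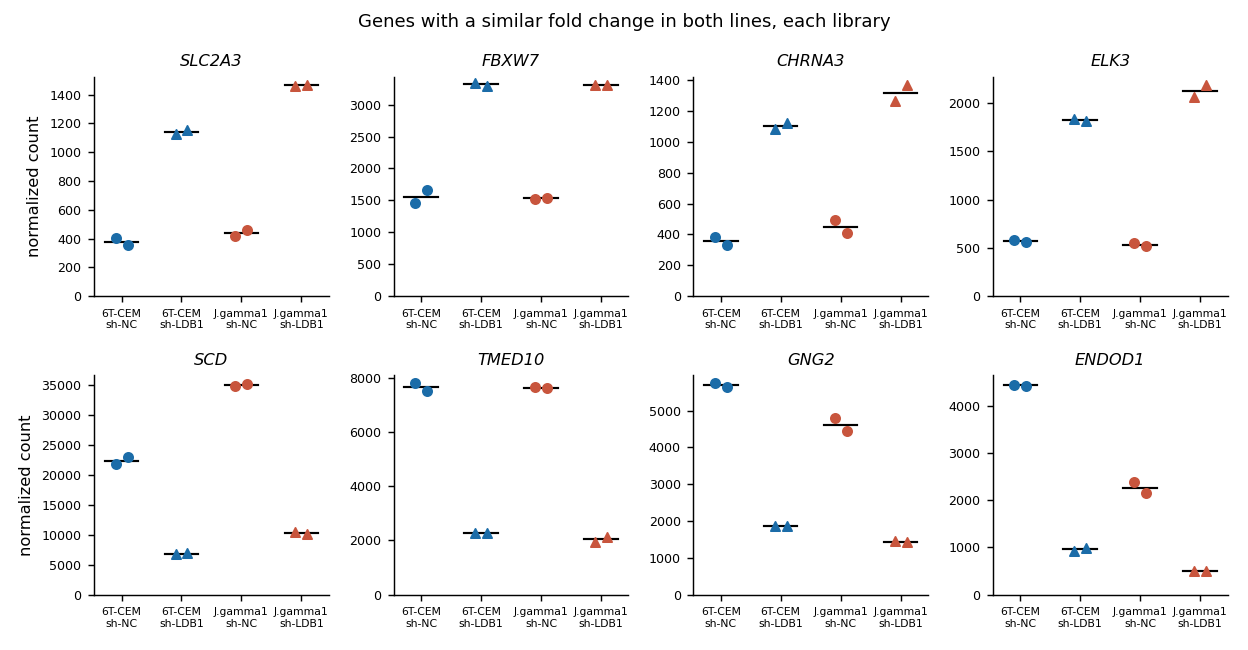
Normalized counts (vertical axes, starting at 0) of 8 genes with a like fold change in both lines, with 1 point per library, circles for sh-NC, triangles for sh-LDB1, blue for 6T-CEM, red for J.gamma1, and a bar at the mean of 2 libraries. In each panel the sh-LDB1 libraries of both lines lie on the same side of the sh-NC libraries without overlap, which the choice of genes fixed.

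Other shared genes changed by more in at least 1 line. IGLL1, the surrogate light chain gene of B-cell precursors, was abundant in the controls, with 9667 and 8921 normalized counts in 6T-CEM cells and 16563 and 17841 in J.gamma1. It was at 1342 and 1469 in 6T-CEM sh-LDB1 and at 370.0 and 315.2 in J.gamma1 sh-LDB1, a log2 fold change of -2.73 ± 0.074 and -5.65 ± 0.087. ETV5, an ETS factor induced by ERK signalling, went from 5378 and 5624 to 917.8 and 908.3 in 6T-CEM cells and from 2330 and 2317 to 128.2 and 98.20 in J.gamma1, where it was 20.6-fold lower. It shares 164 exon bases on its strand with DGKG, which makes its values uncertain. IGLL1 and ETV5 both fell more in J.gamma1. NFE2, a leucine-zipper factor of megakaryocytes and red cells, was at 644.6 and 604.3 in 6T-CEM sh-NC and 117.1 and 140.6 in sh-LDB1, and at 163.1 and 141.2 in J.gamma1 sh-NC and 0 in both sh-LDB1 libraries, which makes it at least 50.3-fold lower there against 3 counts per library. The sum of the erythroid and megakaryocytic markers, of which only 2 were tested, also went down, as given above, and its part in the value of NFE2 was not tested.

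The other genes that fell most by the smaller of their changes were less abundant or abundant in 1 line only. SERPINE2, an inhibitor of serine proteases, had 55.66 and 53.67 against 4.961 and 11.13 in 6T-CEM cells, and 968.7 and 847.4 against 175.7 and 148.3 in J.gamma1. APLN, the peptide ligand apelin, had 181.5 and 164.2 against 29.76 and 36.41, and 245.1 and 202.7 against 35.14 and 77.58. SNAP91, a clathrin assembly protein, fell 4.42-fold and 6.06-fold, and NID2, a basement membrane protein whose exons share 1909 bases with RTRAF on the opposite strand, fell 3.90-fold and 7.22-fold. RTRAF was far more abundant, with a mean of 5.47e+03 normalized counts, so the values of NID2 are uncertain. GPR161, a receptor that restrains Hedgehog signalling, had at most 14.47 normalized counts in any 6T-CEM library and fell 5.24-fold in J.gamma1 from 920.4 and 1026. CDHR1, a cadherin-related protein, had 11.13 and 15.03 in 6T-CEM sh-NC and 0 in both sh-LDB1 libraries, at least 4.35-fold lower, and fell 4.90-fold in J.gamma1.

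Among the genes that rose most were a pre-T-cell receptor chain and myeloid and immune regulators. PTCRA, the pre-T-cell receptor alpha chain, had normalized counts of 18.93 and 44.01 in 6T-CEM sh-NC against 109.1 and 164.9 in sh-LDB1, and of 51.94 and 72.45 in J.gamma1 sh-NC against 226.3 and 266.1 in sh-LDB1. IRF8, a transcription factor of myeloid and B cells, had 22.27 and 16.10 against 97.23 and 98.12, and 49.21 and 42.19 against 221.2 and 255.3. TNFAIP8L2, which restrains immune receptor signalling, had 7.793 and 18.25 against 99.22 and 90.03, and 8.202 and 9.171 against 100.3 and 114.9. IRF8 rose 5.07-fold and 5.20-fold, and the interval of its difference between lines, from -0.88 to 0.96, was wide. TNFAIP8L2 shares 59 exon bases on its strand with SCNM1, which makes its values uncertain. HKDC1, a hexokinase domain protein, went from 6.680 and 15.03 to 75.40 and 92.05 in 6T-CEM cells and from 5.468 and 4.585 to 212.9 and 210.1 in J.gamma1. LST1, a transmembrane protein of leukocytes, had 42.31 and 94.46 against 257.0 and 365.2, and 7.290 and 0.9171 against 36.17 and 66.77. These genes had under 100 normalized counts in every sh-NC library. The summed myeloid markers were 49 to 69 in 6T-CEM sh-NC, 61 to 88 in 6T-CEM sh-LDB1, 7 to 14 in J.gamma1 sh-NC and 22 to 32 in J.gamma1 sh-LDB1. Of these markers 5 were tested, and 0 were called higher and 0 lower. The part of the myeloid markers in the values of IRF8 and LST1 was not tested.

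The remaining genes that rose most encode transporters, enzymes and structural proteins. SLC6A9, the glycine transporter GLYT1, rose 4.85-fold and 7.75-fold, and DBH, dopamine beta-hydroxylase, 8.82-fold and 4.70-fold. PACSIN1, a membrane-bending protein of endocytosis, rose 8.55-fold and 4.96-fold, and THSD1, a thrombospondin-repeat membrane protein, 4.14-fold and 5.55-fold. THSD1 shares 357 exon bases on its strand with VPS36, SLC6A9 shares 413 with CCDC24 and DBH 118 with DBH-AS1 on the opposite strand, so that their values are uncertain. CCDC78, a centriole protein, was near 3 normalized counts in 6T-CEM sh-NC (3.340 and 3.220) and rose to 42.66 and 38.44, a ratio of 12.4 with a 95% counting interval from 5.44 to 34.7, and rose 4.97-fold in J.gamma1. The antisense RNA EPHA1-AS1 had 76.82 and 49.38 against 295.7 and 344.9 in 6T-CEM cells, and 0 in both J.gamma1 sh-NC libraries against 45.48 and 56.95, at least 18.7-fold higher.

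The first gene by size, the read-through gene BIVM-ERCC5 on chromosome 13, had 0 counts in all 4 sh-NC libraries and normalized counts of 1835, 1912, 2034 and 2200 in the 4 sh-LDB1 libraries. That made it at least 571-fold and 772-fold higher against 3 counts per library. It shares 2059 exon bases with BIVM and 3641 with ERCC5 on the same strand. BIVM and ERCC5 were lower, with log2 fold changes in the additive fit of -0.558 and -1.43, and the sum of the 3 genes was 1.07 times the control level in 6T-CEM cells and 0.911 times in J.gamma1. How counts were divided among these overlapping genes is not given in the sources used here, so the values of all 3 are uncertain.

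**Figure D3:**
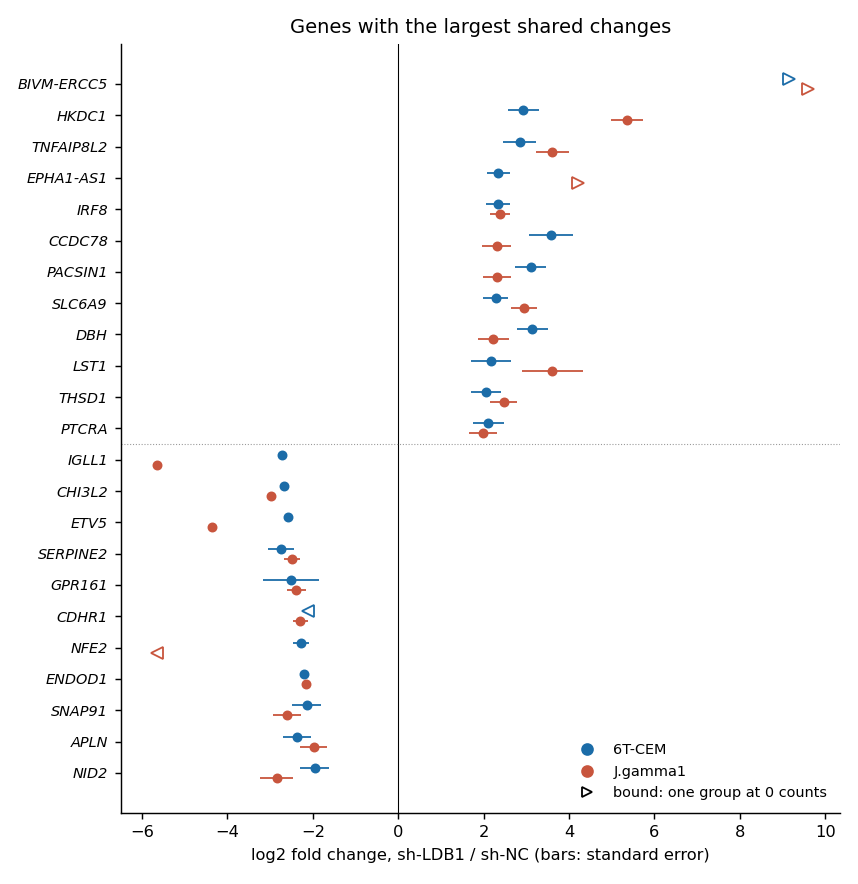
Log2 fold change between sh-LDB1 and sh-NC (horizontal axis; points are estimates, bars standard errors) in 6T-CEM (blue) and J.gamma1 (red) of 12 rising and 11 falling genes with the largest values of the smaller change. Open triangles are bounds against 3 counts per library where a group had 0 counts, as for NFE2 in J.gamma1, and IGLL1 and ETV5 show the widest gaps between lines among the points without a bound below 0.

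For the lists of functions below, a member was called when its additive adjusted p was under 0.05 and both lines had the same sign, with no limit on the fold. Over all genes tested, 13.0% were called higher and 14.8% lower by this rule. The median of all genes was 0 in each line. The lists were put together with earlier results of these data known, so their counts are descriptions.

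Of 18 partners and complex members of LDB1 that were tested, 6 were called lower (33.3%) and 2 higher (11.1%). LYL1, the helix-loop-helix factor related to TAL1, had normalized counts of 1317 and 1293 in 6T-CEM sh-NC against 354.2 and 337.8 in sh-LDB1, and of 257.9 and 212.8 in J.gamma1 sh-NC against 40.31 and 51.06 in sh-LDB1. Its log2 fold change was -1.91 ± 0.13 and -2.36 ± 0.16. The LIM-only gene LMO4 (-0.44 and -0.74) and GATA2 (-0.66 and -1.24) were also called lower, as was GATA3 (-0.54 and -0.34). SSBP4, a single-stranded DNA-binding protein that stabilizes LDB1, was called higher (0.37 and 0.99). TAL1 was called lower, with log2 fold changes of -0.06 ± 0.062 in 6T-CEM cells and -1.23 ± 0.057 in J.gamma1, and its call in the additive fit (adjusted p = 0.044) was lost when any 1 of the 4 J.gamma1 libraries was left out (adjusted p from 0.104 to 0.153). LMO2 was not called (-0.70 and -1.13, adjusted p = 0.0995).

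The haematopoietic transcription factors moved down as a list, with 15 of 28 members called lower (53.6%) and 1 higher, and a median of -0.69 in both lines. HHEX, a homeobox factor of blood progenitors, had normalized counts of 2437 and 2325 against 816.6 and 726.3 in 6T-CEM cells and of 120.3 and 110.0 against 46.51 and 51.06 in J.gamma1. ERG, an ETS factor of blood stem cells, had 4373 and 4755 against 1707 and 1804, and 109.4 and 121.1 against 29.97 and 24.55. Both had much higher levels in 6T-CEM cells and fell without overlap in either line. CBFA2T3, the corepressor ETO2 that joins LDB1 complexes, fell to 54.5% and 49.5% of the control level. ETV6, an ETS repressor, fell to 62.2% and 58.3%, and HES6, a helix-loop-helix factor, had log2 fold changes of -1.80 and -1.07. The member that was called higher was MEF2D (0.26 and 0.46).

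Genes of T-cell precursors moved in both directions, with 8 of 25 called higher (32.0%) and 8 lower (32.0%). RAG1, a subunit of the recombinase that joins antigen receptor genes, had normalized counts of 2778 and 2993 against 8873 and 9040 in 6T-CEM cells, and of 1091 and 1089 against 10317 and 9979 in J.gamma1. RAG2, its partner, had 295.0 and 235.1 against 530.8 and 557.3, and 468.4 and 552.1 against 823.7 and 864.1. RAG1 rose 3.10-fold and 9.31-fold and RAG2 2.05-fold and 1.65-fold. DNTT, the template-free polymerase of the same process, moved the other way, with 51.21 and 37.57 against 9.922 and 18.21 in 6T-CEM cells and 1299 and 1311 against 581.9 and 547.0 in J.gamma1. ZBTB7B, the factor ThPOK of the CD4 lineage, had log2 fold changes of 1.59 and 1.21. CD1A, a marker of cortical thymocytes, fell to 25.9% and 47.8% of the control level, CD1D had -1.13 and -1.10, and IKZF2, the factor Helios, fell to 43.6% and 29.7%. The list thus held genes of the same stage that rose and that fell.

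Genes of the T-cell surface and of receptor signalling were called higher in 12 of 28 (42.9%) and lower in 4 (14.3%), with medians of 0.07 in 6T-CEM cells and 0.54 in J.gamma1. CD4 had normalized counts of 1048 and 1017 against 2432 and 2701 in 6T-CEM cells, and of 158.6 and 138.5 against 672.8 and 673.6 in J.gamma1. CD3E, a chain of the T-cell receptor complex, rose from 11862 and 11846 to 18259 and 18423, and from 13371 and 13393 to 25380 and 25931. The adaptors LAT (0.77 and 1.74) and SIT1 (0.99 and 1.43) were called higher. Of the 4 called lower, PLCG1, the phospholipase that J.gamma1 is described as lacking, had mean normalized counts of 6296 against 4852 in 6T-CEM cells and 7930 against 5536 in J.gamma1, so its RNA was present in that line. A difference between the lines was called for 20 of the 28 members. The sum of the T-lineage markers, which was higher in the sh-LDB1 libraries of both lines, is given above, and its part in these values was not tested. Of those 11 markers 6 were called higher and 0 lower, and 4 had opposite signs in the lines. CD3E belongs to the markers and to this list.

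In the NOTCH list, 5 of 20 members were called lower and 4 higher. NOTCH1, the receptor that most T-ALL activates by mutation, had log2 fold changes of -0.52 ± 0.067 and -0.88 ± 0.073, and its DNA-binding partner RBPJ -0.35 and -0.81. The targets TRIB2 (-0.64 and -0.83) and GIMAP5 (-1.08 and -0.78) were called lower, the coactivator MAML1 was called higher (0.44 in both lines), and PTCRA rose as described above. The list therefore had no common direction, with a median of 0.06 in 6T-CEM cells and 0.09 in J.gamma1.

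The enzymes of sterol synthesis were the list with the largest share of calls, with 17 of 20 called lower (85%) and 0 higher. The medians were -0.62 in 6T-CEM cells and -0.85 in J.gamma1. The pathway runs from acetyl-CoA through mevalonate and squalene to cholesterol, and its genes are under the control of the factor SREBP2. HMGCS1, which makes the precursor of mevalonate, had normalized counts of 19624 and 19031 against 7172 and 7353 in 6T-CEM cells, and of 8315 and 7976 against 3735 and 3812 in J.gamma1. FDPS, which makes farnesyl diphosphate, fell to 52.2% and 40.2% of the control level, FDFT1, squalene synthase, to 53.6% and 38.8%, and LSS, lanosterol synthase, to 47.3% and 51.5%. ACAT2, at the start of the pathway, was called (-0.73 and -1.16), and the 3 members that were not called were PMVK, SC5D and TM7SF2, named here after their values were seen. A difference between the lines was called for 10 of the 20.

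The SREBP regulators and lipid genes moved with them, with 14 of 19 called lower (73.7%) and 1 higher, and medians of -0.51 and -0.49. SREBF2, which encodes SREBP2, was at -0.12 ± 0.048 and -0.62 ± 0.049, its additive call (adjusted p = 0.0221) was lost when any 1 of the 4 J.gamma1 libraries was left out (adjusted p from 0.0629 to 0.0787), and SREBF1 was at -0.50 and -0.67. SCAP, the escort of SREBP proteins, was the member called higher (0.18 and 0.26; adjusted p = 0.0137, and 0.0517 without J.gamma1 sh-NC replicate 1). INSIG1, which holds SCAP back in the endoplasmic reticulum and is itself an SREBP target, had 11318 and 11098 against 5707 and 5569 in 6T-CEM cells and 25882 and 26039 against 7256 and 7849 in J.gamma1. Among lipid enzymes ACLY (-0.51 and -0.49) and ACSL3 (-0.61 and -0.63) fell by a similar amount in both lines, FADS2 (-0.55 and -1.01) fell too, and SCD is described above. In the efflux list NR1H2, the oxysterol receptor LXR-beta, rose 2.28-fold and 2.59-fold and ABCG1, a sterol exporter and LXR target, fell to 23.4% and 37.1% of the control level, with 2 of 9 members called higher and 3 lower.

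DNA replication genes were called lower in 19 of 31 (61.3%) and higher in 2, while mitosis genes were called higher in 14 of 25 (56.0%) and lower in 2. CDC45, a part of the replicative helicase, had normalized counts of 2806 and 2657 against 1592 and 1655 in 6T-CEM cells, and of 2548 and 2699 against 1124 and 1076 in J.gamma1. PCNA, the sliding clamp, had 24872 and 22762 against 18345 and 17673, and 12517 and 12308 against 8361 and 8513. The clamp loader subunit RFC3 (-0.60 and -0.87), the helicase subunit MCM2 (-0.50 and -0.46) and the ligase LIG1 (-0.42 and -0.68) were also lower. The changes of this list were small in 6T-CEM, with medians of -0.16 there and -0.51 in J.gamma1, and a difference between the lines was called for 20 of 31 members.

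Of the mitosis genes, CDC20, an activator of the anaphase-promoting complex, had normalized counts of 5807 and 6039 against 9131 and 9826 in 6T-CEM cells, and of 6766 and 7278 against 10557 and 11132 in J.gamma1. PLK1, a mitotic kinase, had 6526 and 6951 against 11456 and 12179, and 6167 and 6439 against 9449 and 9111. CCNB1, cyclin B1, rose 1.47-fold and 1.41-fold. The median of the list was 0.44 in 6T-CEM against 0.09 in J.gamma1, and a difference was called for 23 of the 25 members. TOP2A, topoisomerase II alpha, was called lower (adjusted p = 0.0415), at -0.06 ± 0.041 in 6T-CEM cells and -0.89 ± 0.041 in J.gamma1, and this call was lost when any 1 of the 4 J.gamma1 libraries was left out (adjusted p from 0.103 to 0.138). MAD2L1 was lower in both (-0.22 and -0.50). In the G1 list CDKN1B, the inhibitor p27, rose 1.79-fold and 1.47-fold, CCNE1, cyclin E1, fell to 45.1% and 59.4% of the control level, and of 18 members 2 were called higher and 4 lower, CCNE2 and E2F1 among the latter.

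**Figure D4:**
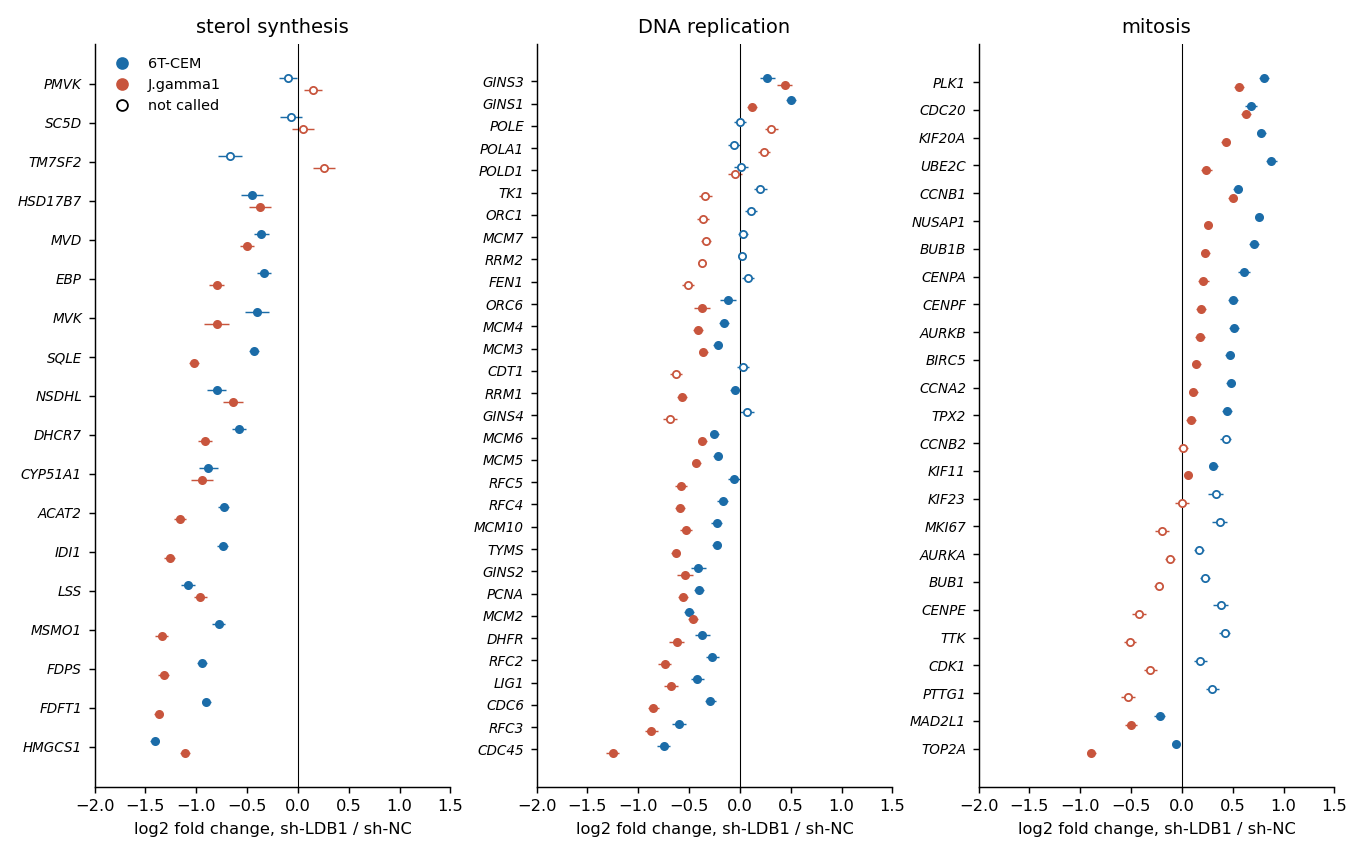
Log2 fold change between sh-LDB1 and sh-NC (horizontal axes; points are estimates, bars standard errors) of members of the sterol synthesis, DNA replication and mitosis lists, in 6T-CEM (blue) and J.gamma1 (red), with open points for members not called. The sterol and replication members lie mostly below 0 in both lines, and the mitosis members lie further above 0 in 6T-CEM than in J.gamma1.

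The promoters of these 3 lists were compared for short motifs, in a window of RefSeq promoters (GRCh38.p14) from 250 bases before to 50 after the start. The motifs were chosen with the results known, matches on either strand were counted, and a match is a description of letters and not of binding. Of 11695 tested genes with a promoter in the table, 36.5% held the CCAAT box, written ATTGG on the other strand, against 12 of 15 sterol synthesis promoters, 16 of 27 of DNA replication and 18 of 20 of mitosis. The CHR motif of late cell cycle genes, TTTGAA, was in 9.98% of all and in 13 of 20 mitosis promoters, 1 of 27 replication and 1 of 15 sterol promoters. The E2F motif TTCCCGCC was in 5.02% of all and in 8 of 27 replication promoters, 1 of 20 mitosis and 1 of 15 sterol promoters. The sterol element TCACNCCAC was in 1.15% of all and in 0 of the 15 sterol promoters, which says only that these letters were not in this window. Over the table's 27305 promoters the shares were 35.7% for the CCAAT box, 15.4% for CHR, 3.18% for E2F and 1.15% for the sterol element. The shared genes as a whole were near the background for the CCAAT box, with 31.5% of 181 promoters of genes that rose and 32.6% of 264 of genes that fell, and CHR was in 18.8% and 9.47% of these.

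For each list the promoters of the called members with the smallest additive p that hold its motif are printed 5′ to 3′ on the gene's strand. Only matches to the motifs named for that list are in capitals. The sterol promoters show CCAAT boxes (HMGCS1, chr5:43313363-43313662, minus strand; LSS, chr21:46228725-46229024, minus strand).
HMGCS1: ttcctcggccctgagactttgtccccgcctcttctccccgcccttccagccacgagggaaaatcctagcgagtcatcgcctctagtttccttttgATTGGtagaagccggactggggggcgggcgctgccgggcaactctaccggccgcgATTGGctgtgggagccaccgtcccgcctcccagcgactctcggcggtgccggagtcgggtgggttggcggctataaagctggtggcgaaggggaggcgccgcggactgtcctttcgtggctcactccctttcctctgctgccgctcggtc
LSS: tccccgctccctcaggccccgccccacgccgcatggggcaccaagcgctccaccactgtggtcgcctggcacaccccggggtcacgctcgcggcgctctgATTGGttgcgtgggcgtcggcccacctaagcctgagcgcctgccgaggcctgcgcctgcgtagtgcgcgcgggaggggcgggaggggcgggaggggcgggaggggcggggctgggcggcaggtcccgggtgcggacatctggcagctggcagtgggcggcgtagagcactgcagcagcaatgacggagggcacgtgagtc
The replication promoters show the E2F motif (PCNA, chr20:5126573-5126872, minus strand; LIG1, chr19:48170295-48170594, minus strand).
PCNA: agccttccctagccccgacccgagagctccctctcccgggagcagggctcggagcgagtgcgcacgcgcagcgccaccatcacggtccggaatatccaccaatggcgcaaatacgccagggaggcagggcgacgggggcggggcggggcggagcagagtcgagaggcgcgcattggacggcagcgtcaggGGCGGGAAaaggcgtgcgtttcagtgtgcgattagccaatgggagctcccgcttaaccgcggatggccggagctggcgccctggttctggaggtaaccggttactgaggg
LIG1: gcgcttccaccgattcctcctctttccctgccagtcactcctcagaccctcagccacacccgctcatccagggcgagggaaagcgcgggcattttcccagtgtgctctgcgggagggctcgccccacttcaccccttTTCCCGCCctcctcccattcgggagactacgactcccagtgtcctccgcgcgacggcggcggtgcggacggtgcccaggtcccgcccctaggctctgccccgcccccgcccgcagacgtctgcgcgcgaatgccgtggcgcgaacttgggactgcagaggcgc
The mitosis promoters show CHR and CCAAT motifs (CDC20, chr1:43358731-43359030, plus strand; PLK1, chr16:23678639-23678938, plus strand).
CDC20: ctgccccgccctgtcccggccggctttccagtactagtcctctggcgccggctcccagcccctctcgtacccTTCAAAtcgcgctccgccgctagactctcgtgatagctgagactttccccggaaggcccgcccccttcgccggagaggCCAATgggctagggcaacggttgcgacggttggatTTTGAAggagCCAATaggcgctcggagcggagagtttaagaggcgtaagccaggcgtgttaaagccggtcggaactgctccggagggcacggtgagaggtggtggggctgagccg
PLK1: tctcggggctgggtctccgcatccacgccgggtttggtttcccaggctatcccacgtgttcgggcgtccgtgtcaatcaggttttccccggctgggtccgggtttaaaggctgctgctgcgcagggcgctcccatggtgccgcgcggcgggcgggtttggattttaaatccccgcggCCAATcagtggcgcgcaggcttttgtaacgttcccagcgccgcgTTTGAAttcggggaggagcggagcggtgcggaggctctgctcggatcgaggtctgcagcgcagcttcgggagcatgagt
CDC20 held 4 matches, 2 of each motif, and PLK1 held 2. HMGCS1 held 2 CCAAT boxes, and LSS, PCNA and LIG1 held 1 match each to the motif marked in them. In PCNA and LIG1 only the E2F motif was marked, and PCNA also holds CCAAT boxes, left in lower case.

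Stress and survival genes gave several calls in both lines. ATF4 targets were called higher in 13 of 19 (68.4%) and lower in 1, with medians of 0.22 and 0.55. SLC7A11, the cystine carrier, had normalized counts of 562.2 and 476.6 against 1084 and 799.1 in 6T-CEM cells, and of 203.2 and 204.5 against 853.7 and 833.7 in J.gamma1. CEBPB, a leucine-zipper factor, rose 1.59-fold and 2.00-fold, SESN2 was at 0.52 and 0.82, and DDIT3, the factor CHOP, at 0.83 and 0.68. The target that was called lower was ATF3 (-0.70 and -0.72). NRF2 targets, genes of the oxidant response, were called higher in 8 of 15 (53.3%) and lower in 2, and NQO1, a quinone reductase, rose 1.92-fold and 2.32-fold. The 2 that fell were PGD (-0.57 and -0.43) and FTH1 (-0.33 and -0.82), while FTL, the light chain of ferritin, was higher (0.41 and 0.36). Lysosome and autophagy genes were called higher in 9 of 22 (40.9%) and lower in 1, and the autophagy kinase ULK1 rose 2.15-fold and 2.42-fold and the lysosomal carboxypeptidase CTSA 1.74-fold and 2.02-fold.

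Among p53 targets, 5 of 19 were called higher and 3 lower. BTG2, an antiproliferative gene that p53 and other factors induce, had normalized counts of 457.6 and 520.6 against 1645 and 1702 in 6T-CEM cells, and of 799.2 and 708.9 against 3555 and 3606 in J.gamma1. TNFRSF10B, a death receptor, was at 1.51 and 0.69, and TP53I3 (-0.53 and -1.30) and RRM2B (-0.42 and -0.40) were lower. BCL2, the inhibitor of apoptosis, went from 1275 and 1493 to 828.5 and 728.3 in 6T-CEM cells and from 1580 and 1507 to 508.5 and 513.6 in J.gamma1. It was the member of 16 in its family called lower (6.25%), against 3 called higher (18.8%). Over all genes tested the shares were 14.8% and 13.0%. The calls of PMAIP1, BAK1 and BCL2L13, each higher, were lost when any 1 of the 4 J.gamma1 libraries was left out (edgeR adjusted p from 0.0531 to 0.0703). BTG2 rose and BCL2 fell without overlap in either line.

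Receptors and signalling genes moved in both directions. In the homing and adhesion list 9 of 20 members were called lower (45.0%) and 6 higher (30.0%). ITGA4, the alpha 4 integrin, had 11617 and 11982 against 6152 and 5982 in 6T-CEM cells, and 8458 and 8600 against 3583 and 3688 in J.gamma1. S1PR1, the receptor for exit from lymphoid tissue, fell to 54.3% and 44.4% of the control level and ICAM2 to 49.0% and 25.0%, while ITGAL, the alpha chain of LFA-1, rose 1.62-fold and 1.67-fold. Of the JAK-STAT list, STAT5A fell to 45.3% and 31.8% and STAT5B to 55.2% and 40.5%. STAT3 was at -0.58 and -0.81, and SOCS1, a feedback inhibitor, rose 6.73-fold and 2.31-fold. In this list 4 of 20 were called lower (20%) and 3 higher (15%), near the 14.8% and 13.0% of all genes tested. In the NF-kB list, 5 of 16 were called lower (31.2%) and 2 higher (12.5%). TNFAIP3, the inhibitor A20, was at 47.6% and 49.6% of the control level and NFKB1 at 61.5% and 57.5%. Of 15 ERK feedback genes 4 were called lower (26.7%) and 0 higher, among them SPRY1 (-1.37 and -0.96) and ETV5, with medians of 0.00 in 6T-CEM cells and -0.96 in J.gamma1. In both lines 6 members were lower and 1 was higher, and 8 had no common sign. The call of DUSP6, which was lower, was lost when any 1 of the 4 J.gamma1 libraries was left out (edgeR adjusted p from 0.0947 to 0.135).

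Some lists had shares of calls near the background or no common direction. Of 64 cytosolic ribosomal proteins 5 were called higher (7.81%) and 1 lower (1.56%), and of 35 oxidative phosphorylation genes 0 were called higher and 6 lower (17.1%), with UQCRC2 at -0.32 and -0.33. In the list of MYC and ribosome biogenesis genes 3 of 26 were called higher and 1 lower, a difference between the lines was called for 24 of 26, and the median was -0.15 in 6T-CEM cells and 0.67 in J.gamma1. Of 24 glycolysis and hypoxia genes 4 were called higher and 6 lower. Among these HK1, hexokinase 1 (-0.68 and -1.04), and ALDOC (-1.14 and -1.45) were lower and PKM, pyruvate kinase (0.62 and 0.39), and SLC2A3 were higher. Of 26 interferon response genes 6 were called higher and 2 lower, with BST2 at 0.65 and 1.27. In the MHC class I list 2 of 15 were called higher and 4 lower, with HLA-B at 56.5% and 45.7% of the control level, although HLA genes share reads and are uncertain. With the replicate number as a block, the calls of HLA-C, NLRC5 and ERAP1, each lower, were lost (edgeR adjusted p = 0.108, 0.116 and 0.0748). Each was also lost when some single libraries were left out. Of 14 endoplasmic reticulum folding genes 3 were called higher and 2 lower, with HSP90B1 at 0.48 and 1.10 and CALR, calreticulin, at -0.63 and -1.41. Of 16 chromatin looping factors 2 were called higher and 3 lower, with the cohesin subunit STAG1 at 0.41 and 0.49 and PDS5B at -0.26 and -0.46, and the median was 0.08 and -0.03.

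The seeds of the 3 hairpins were counted in 3′ UTRs, as 7-base matches to guide bases 2 to 8, over 13424 tested genes with an annotated 3′ UTR. Sites of sh-LDB1#1 (TGACAAT) were in 10.3% of all, in 5.75% of 226 shared genes that rose and in 15.2% of 330 that fell. Sites of sh-LDB1#2 (CATCTTT) were in 20.9%, 20.4% and 26.4%, and those of sh-LDB1#3 (GCACTTC) in 9.46%, 7.96% and 9.39%. The 3′ UTR length was not taken into account, and the part of seed matches in these changes was not tested. Of the falling genes named above for the size or the like size of their change, ETV5, NFE2 and GNG2 held a sh-LDB1#1 site, SERPINE2, CDHR1, ENDOD1, SCD and TMED10 a sh-LDB1#2 site, and GPR161, ENDOD1 and GNG2 a sh-LDB1#3 site.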

How the data were processed

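Sequenced RNA came from both T-ALL lines with sh-NC or sh-LDB1, 2 libraries in each of 4 groups. Per the labels and methods, the authors used HISAT2 2.2.0 to align read pairs to hg38, quantified genes with StringTie and tested them with DESeq2. They deposited 1 table of whole-number counts per gene for each line, not normalized and not pooled. The annotation release, strand use and the way StringTie's output became counts are not given in the sources used here. Nothing in the labels says that the replicates were separate cultures, so p-values measure only the spread between these libraries, which may be technical.

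The tables were joined by Ensembl ID (64252 genes, 56105 with a symbol, 0 columns left out). Depth was 26160492 to 30604977 counts, with a biological coefficient of variation of 15.8% in the additive fit and 9.58% in the fit of 4 groups. R 4.3.3 with edgeR 4.0.16 (robust quasi-likelihood test, TMM, filterByExpr, Benjamini-Hochberg adjustment over 18552 genes) was used for a fit of line plus knockdown to all 8 libraries, in which a difference between the lines adds to the residual spread. Effects in each line and their difference came from a fit of the 4 groups. A standard error is the size of a log2 fold change over the root of its F statistic. Folds against a group at 0 are bounds against 3 counts per library, and those against 1 to 3 counts have exact 95% intervals, which cover counting error only. Alternatives were other scalings and filters, DESeq2 1.42.0, the replicate number as a block, each line by itself, leaving out each library, and other fold thresholds. On simulated counts of 18552 genes, 154 of 200 genes changed in both lines were recovered by the additive fit, and 5.29% of its calls were unchanged genes. These calls were by adjusted p without a fold limit. Other genes were simulated to change in J.gamma1 only, and calls of those were not counted as false.

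The genes described, the lists and the motifs were chosen with earlier results of these data known. Named genes were LDB1, then, of shared genes with a symbol, at least 50 normalized counts on average and no overlap, 12 per direction by the smaller per-line change and 5 per direction by adjusted p among those of like size, then up to 6 called members per list by p, and members that define a pathway. Where 5 or fewer members of a list were called in a direction or not called, some were named after their values were seen (MEF2D, PMVK, SC5D, TM7SF2). Some members of the lists and some genes that meet this rule are not reported here. Coordinates and overlaps are from GENCODE (GRCh38), promoters from RefSeq (GRCh38.p14). Python 3.11.15 with pandas 2.3.3, scipy 1.17.1 and matplotlib 3.10.9 was used for the rest.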

Additional observations from a re-analysis of the deposited data

Results flagged for a closer look

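The effect of knockdown differed between the lines, by a test of the difference itself (edgeR's quasi-likelihood test, adjusted by Benjamini-Hochberg), for 4524 of 18552 genes. Of 33 genes named by size or like size with LDB1, 8 were among them, with adjusted p between 6.23e-08 and 0.0415. Each value is the log2 fold change in J.gamma1 minus that in 6T-CEM. LDB1 fell less in J.gamma1 (0.70, 95% interval 0.50 to 0.91). IGLL1 (-2.93), ETV5 (-1.77) and CHI3L2 (-0.30) fell more in J.gamma1, and HKDC1 (2.43) and ELK3 (0.32) rose more there. With a group at 0 counts the fitted difference depends on the prior count, so that the differences of EPHA1-AS1 (1.88) and NFE2 (-3.37) are given at the bound of 3 counts per library, and the fitted differences are larger in size. CDHR1 had an adjusted p of 0.0126 for its fitted difference but -0.17 at the bound, and is not counted among the 8. With 2 libraries per group no library could be tested as an outlier.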

How the results depend on the processing

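The 8 libraries give 2 per group, which limits the precision of each line's effect, and counts below about 3 per library give bounds only. The number of genes called higher in the additive fit was 588, and it was 390 with a filter of at least 1 CPM in 4 libraries. Leaving out 1 library at a time gave 384 to 581 genes called higher, with the lowest value without J.gamma1 sh-LDB1 replicate 1, 456 to 703 called lower, 215 to 252 shared genes that rose and 304 to 367 that fell, and log2 fold changes of LDB1 from -1.34 to -1.15. The cause of these shifts was not tested. With no fold-change threshold the additive fit called 2458 genes higher and 2849 lower, and 1294 and 1630 were shared. With a 1.5-fold threshold the numbers were 1138, 1385, 608 and 870, since both thresholds admit smaller changes.

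The labels number the replicates, but same-numbered libraries of a line did not deviate together (correlations of deviations of -0.0109 in 6T-CEM cells and -0.0088 in J.gamma1), so the numbers were not taken to pair the samples. With the replicate number as a block, 352 genes were called higher and 466 lower in the additive fit, 256 and 340 were shared, and LDB1 was at -1.25 (edgeR adjusted p = 0.00798).

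The other alternatives kept each count within 1.5 times its main value, and DESeq2 called 642 higher and 669 lower. Of 2827 fold changes of 202 named genes under the alternatives, 166 no longer passed the test and 6 changed sign. The 6 belong to uncalled genes near 0, with SC5D at 0.03 (total counts), 0.00 (the CPM filter), and -0.08 to 0.08 without 1 library, and PMVK at -0.04 to 0.07 without 1 library. Between 75.8% and 99.7% of the 658 shared genes remained shared under the alternatives other than the thresholds. Scaling by total counts alone shifted the median log2 fold change by 0.0391.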
